A study of Mus musculus with 15 samples.

Results

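The NRF2 and antioxidant genes described here were 10 genes fixed by symbol, Nfe2l2, Nqo1, Gclc, Gclm, Txnrd1, Srxn1, Slc7a11, Osgin1, Cat and Sod1, of 12393 genes measured on mouse liver arrays. All 10 were on the array, through 18 probe sets, and each gene was read from its probe set with the highest mean signal over the 15 arrays, without a filter on dim probe sets. The mice carried human alpha1-antitrypsin, a secreted protease inhibitor of hepatocytes, as the normal M form or as the Z mutant, which polymerises in the endoplasmic reticulum. Expression was driven only in hepatocytes and was shut off by doxycycline.

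There were 5 groups of 3 biological replicates, labelled as adult males aged 3 months. Z-on (titled Z4) and M-on (M4) carried the Z or M transgene and received no doxycycline, so the human protein was made. Z-off (Z1) and M-off (M1) carried the same transgenes and drank doxycycline at 40 µg/mL from conception, so it was not made. WT were wild type littermates without transgene product and without doxycycline. Strain, founder line and the transcription factor that drives the switch are not stated in the labels, so Z-on or M-on against WT holds line and transgene together, Z-off or M-off against WT holds line and doxycycline together, and on against off holds doxycycline and transgene together. The human transgene itself was not measured here.

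NRF2, the product of Nfe2l2, is a transcription factor that KEAP1 holds in the cytoplasm and sends to the proteasome. Oxidants and electrophiles modify KEAP1, and NRF2 then enters the nucleus, pairs with small MAF proteins and binds antioxidant response elements near genes for glutathione synthesis, the thioredoxin system and quinone detoxification. Much of this control acts on the protein, so the Nfe2l2 transcript need not follow the activity of the factor. Catalase and the copper-zinc superoxide dismutase are abundant hepatocyte enzymes that remove hydrogen peroxide and superoxide.

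The on and off arrays differed in more than the transgene. Spiked poly-A control probe sets had median signals of 2 to 5.2 on the Z-on and M-on arrays and 33.8 to 57.9 on the other arrays, and the 18S rRNA 5′ probe set read 1830 to 2681 against 75 to 568. The source of this difference is not given. The WT arrays read like the off arrays here. Between the on groups and either the off groups or WT, the difference cannot be told apart from the transgene. Dim and bright genes shifted too: the median gene changed by 0.25 (Z) and 0.29 (M) on the log2 scale from off to on and by -0.19 from WT to either off group, and quantile normalization across arrays, over 1 probe set per gene, brought these medians to 0.00, 0.03, -0.01 and -0.01. It also turned the share of called genes that were higher from 80.8% to 51.8% for Z-on against Z-off, from 75.4% to 52.2% for M-on against M-off, from 16.8% to 49.6% for Z-off against WT and from 15.1% to 47.6% for M-off against WT. For Z-on and M-on against WT it went from 61.4% to 49.9% and from 60.7% to 50.3%. Against the male label, M-on 1 and M-on 2 read 1149 and 226 for Xist and 0.4 and 1.3 for Eif2s3y, while the 12 arrays of the other groups read at most 74.3 and at least 105.3, and M-on 3 read 32.6 and 42.1. Results with M-on, apart from those of cell type markers, are therefore given without M-on 1 and M-on 2 too, where the call changed. M-on is then 1 array that is assumed to vary like the other groups. All 6 hepatocyte markers had means above 16 in every group.

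The stretches of DNA before the transcription starts of Srxn1 and Osgin1 are shown because they were the members whose windows held the stricter of the response-element cores searched. They come from RefSeq for GRCm38.p6, 250 bases upstream of the annotated start, 5′ to 3′ on the gene's strand, with the matched letters in capitals. The Srxn1 stretch is chr2:152105274-152105523 on the + strand and the Osgin1 stretch is chr8:119436897-119437146 on the + strand.
Srxn1: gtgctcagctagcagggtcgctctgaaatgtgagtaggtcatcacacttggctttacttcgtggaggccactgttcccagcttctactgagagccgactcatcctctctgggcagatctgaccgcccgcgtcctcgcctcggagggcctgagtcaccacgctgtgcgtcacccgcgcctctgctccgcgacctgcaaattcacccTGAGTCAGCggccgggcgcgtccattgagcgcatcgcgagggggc
Osgin1: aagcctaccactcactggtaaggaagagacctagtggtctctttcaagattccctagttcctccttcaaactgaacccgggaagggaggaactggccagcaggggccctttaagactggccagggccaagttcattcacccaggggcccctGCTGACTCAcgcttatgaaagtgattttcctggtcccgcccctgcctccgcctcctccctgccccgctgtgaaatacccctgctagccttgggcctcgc
The Srxn1 match, TGAGTCAGC, began 45 bases before the start (chr2:152105479-152105487). The Osgin1 match, GCTGACTCA, which reads TGAGTCAGC on the opposite strand, began 99 bases before it (chr8:119437048-119437056). Both fit TGANTCAGC, searched on both strands of the 300-base windows (250 before and 50 after the start), which 390 of 32851 RefSeq windows held (1.19%).

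A looser core, TGACNNNGC, stood in the windows of Nfe2l2, Srxn1, Gclm, Txnrd1 and Sod1. It was present in 12.4% of all windows, and the 2 searches overlap where the letter N of the first is C. The surroundings are shown for Gclm (chr3:122245407-122245447, + strand, match 134 bases before the start) and Sod1 (chr16:90220690-90220730, + strand, match 56 bases before the start), since these genes were called in opposite directions below. The capitals read TGACNNNGC on the opposite strand.
Gclm: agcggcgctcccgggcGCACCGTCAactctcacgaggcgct
Sod1: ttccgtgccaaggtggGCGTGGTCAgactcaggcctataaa
Windows were found for 9 of the 10 genes, and Gclc is the gene named without one. The motifs were chosen after the sequences had been seen, and a match describes letters, not a binding site.

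When the Z protein was made, Slc7a11 and Gclm were higher and Osgin1, Sod1 and Cat were lower than in Z-off. When the M protein was made, Nqo1, Slc7a11 and Srxn1 were higher and Sod1 and Cat were lower than in M-off. A gene was called at an adjusted p under 0.05 by limma on log2(signal + 16) over all genes. For Z-on against Z-off, 2 of 10 members were called higher, where 31.8% of all genes were, and 3 were called lower, where 7.56% were. For M-on against M-off, 3 were called higher, against 38.1% of all genes, and 2 lower, against 12.5%. The members' median change was -0.02 for Z, beside 0.25 over all genes, and 0.09 for M, beside 0.29. After quantile normalization 2 members were called higher (13.2% of all genes) and 4 lower (12.3%) for Z, and 0 higher (19.5%) and 2 lower (17.9%) for M. Normalizing over all probe sets in place of 1 per gene gave 2 higher (13.2% of all probe sets) and 4 lower (12.6%) for Z, and 2 higher (19.4%) and 2 lower (18.1%) for M. Fewer cells of a type and less RNA per cell cannot be told apart in these whole-liver samples.

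**Figure D1:**
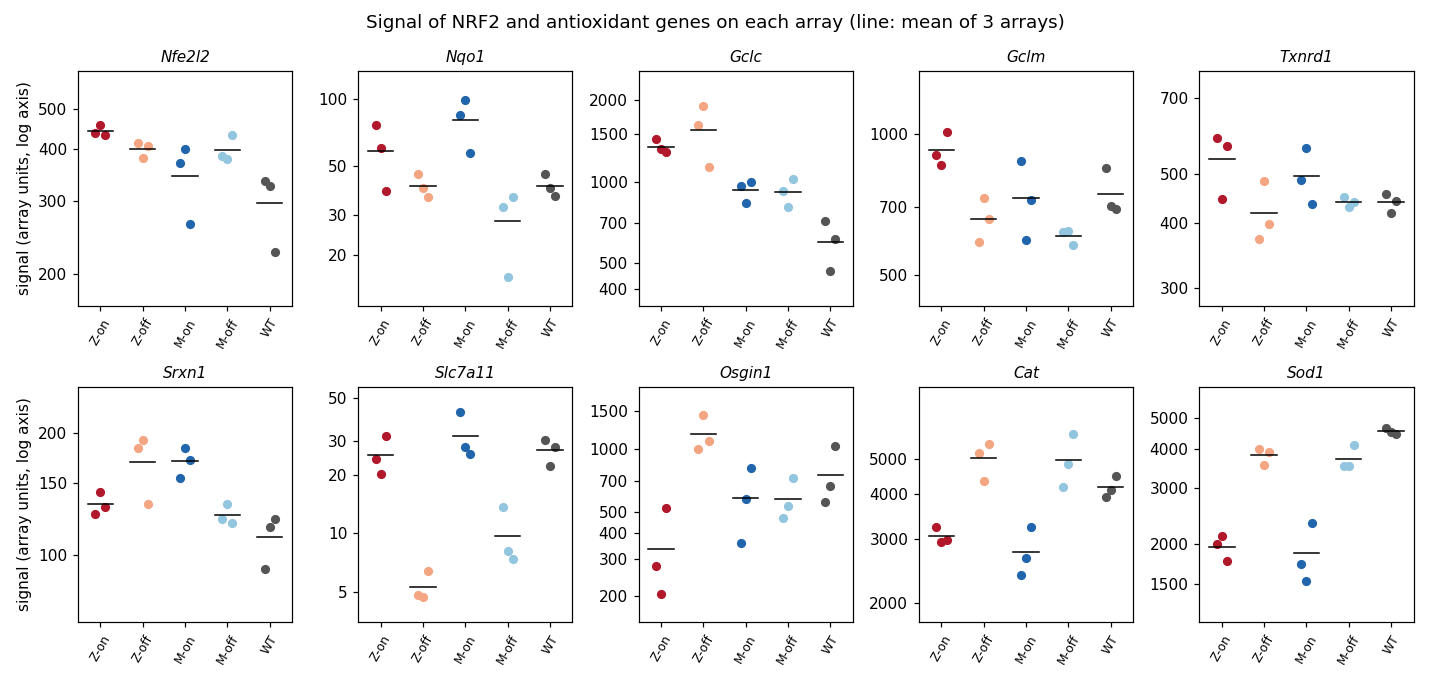
Signal of each gene on each array (linear array units on a log axis, 1 panel per gene) in Z-on, Z-off, M-on, M-off and WT, with points for the 3 arrays and a line at their mean. Sod1 and Cat sat lowest in both on groups, Slc7a11 sat lowest in both off groups, Gclc lowest in WT, and Osgin1 spread widely within groups.

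Nfe2l2, the gene of NRF2 itself, differed little between on and off. Its signal was 438, 457 and 433 in Z-on and 413, 381 and 405.5 in Z-off, groups that did not overlap but differed by only 0.14 (SE 0.17, limma adjusted p = 0.531). In M-on it was 369.6, 399 and 264, with the low array M-on 3, and in M-off 384.5, 378 and 431.1. The change of -0.22 (SE 0.17) had an adjusted p of 0.293, and without M-on 1 and M-on 2 the single array left gave -0.56 (adjusted p = 0.0455). WT read 334.5, 326 and 226, below every Z-on, Z-off and M-off array. Z-off and M-off exceeded WT by 0.44 (adjusted p = 0.0718) and 0.43 (adjusted p = 0.0736), which were not called. Z-on exceeded WT by 0.58 (SE 0.17, adjusted p = 0.0362). That call was lost without any 1 of the Z-on arrays or without WT 3, the lowest, where the adjusted p reached 0.126 at most, and after quantile normalization (0.56, adjusted p = 0.0586). From high to low, group means ran Z-on, Z-off, M-off, M-on and WT, and among neighbours only Z-on and Z-off did not overlap.

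Glutathione synthesis starts with glutamate-cysteine ligase, whose catalytic subunit is GCLC and whose modifier subunit, GCLM, raises its affinity and eases feedback. Gclc read 1436, 1326 and 1282.5 in Z-on and 1620.1, 1910.5 and 1136 in Z-off. The M-on arrays read 963, 830.0 and 999 and the M-off arrays 924, 803.5 and 1022.5. WT read 715.5, 466 and 614. Every transgenic array was above every WT array, with or without doxycycline.

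Gclc showed no called on-off change, at -0.17 (SE 0.19, adjusted p = 0.503) for Z and 0.02 (SE 0.19, adjusted p = 0.928) for M. Against WT it was higher by 1.17 in Z-on (adjusted p = 0.00209), 1.34 in Z-off (adjusted p = 5.85e-04), 0.64 (adjusted p = 0.0276) in M-on and 0.62 (adjusted p = 0.0301) in M-off, all with SE 0.19 and all sharing the WT arrays. The call for M-off was lost after quantile normalization (0.52, adjusted p = 0.0912). Without M-on 1 and M-on 2, M-on gave 0.74 (adjusted p = 0.0927). Leaving out 1 array ended the M-on call without M-on 1, M-on 3 or WT 2 (adjusted p up to 0.114) and the M-off call without M-off 1, M-off 3, WT 2 or WT 3 (adjusted p up to 0.121), while both Z calls held in 6 of 6. Z-off exceeded M-off by 0.73 (SE 0.19) with adjusted p = 0.156, and by 0.94 (adjusted p = 0.048) without Z-off 3, its lowest array.

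A second Gclc probe set, 1455959_s_at, gave another picture. Its means were 629.7 ± 47.2 (SD, n = 3) for Z-on and 1090.2 ± 302 for Z-off. They were 565 ± 70.0 for M-on, 610.0 ± 45.8 for M-off and 628 ± 98.2 for WT. By it Z-off alone stood above WT, by 0.75 (SE 0.19, limma adjusted p = 0.0124 over all probe sets), and Z-on was below Z-off, with a change of -0.74 (adjusted p = 0.00723). The excess of both M groups over WT was absent there, at -0.14 and -0.03.

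Gclm read 901, 857 and 1010.2 in Z-on and 587, 731 and 658 in Z-off, with no overlap. It was higher in Z-on by 0.48 (SE 0.15, adjusted p = 0.0213), where the brightest decile of genes, to which it belongs, had a median change of -0.16. The call was lost without Z-on 3, the highest array, or Z-off 1, the lowest (adjusted p up to 0.0871). In M-on it read 876, 595 and 723 and in M-off 618, 622 and 580.2, which overlapped (0.25, SE 0.15, adjusted p = 0.185). WT, at 845, 701.5 and 691, lay just below Z-on without overlap (0.30, SE 0.15, adjusted p = 0.21). Between Z-on and M-on the difference was 0.34 (adjusted p = 0.22), and 0.48 (adjusted p = 0.0453) without M-on 1, the highest M-on array.

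Slc7a11 encodes the cystine transporter xCT, which brings in the cysteine for glutathione. Its signals were low throughout, 24.3, 20.2 and 32.0 in Z-on against 4.8, 4.7 and 6.4 in Z-off, and 42.4, 28.0 and 25.8 in M-on against 13.7, 8.1 and 7.4 in M-off. WT read 30.5, 22.4 and 28.0, within the range of the on groups, so the off groups stood below the other 3 groups.

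The on-off rise of Slc7a11 was 0.95 for Z (SE 0.16, adjusted p = 4.19e-04) and 0.89 for M (SE 0.16, adjusted p = 4.23e-04). Both off groups were below WT, with differences of -1.01 (adjusted p = 0.00101) and -0.74 (adjusted p = 0.00431), and these 4 calls held when any 1 array was left out. The off signals, 4.7 to 13.7, lie below the added constant of 16, which compresses the differences: with a constant of 1 the rises were 2.06 and 1.64 and the differences from WT -2.15 and -1.42, and all 4 were called. Dim genes as a class moved the same way: the median of the genes in its decile of mean signal changed by 0.61 and 0.72 from off to on, and by -0.46 and -0.50 from WT to off. After quantile normalization the Z changes still passed, at 0.48 (adjusted p = 0.0263) on-off and -0.63 (adjusted p = 0.0145) against WT, and the M changes did not, at 0.25 (adjusted p = 0.185) and -0.23 (adjusted p = 0.33). When arrays were normalized over all probe sets in place of 1 per gene, the M on-off rise passed too (0.41, adjusted p = 0.0379).

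The thioredoxin system is represented by Txnrd1, the cytosolic thioredoxin reductase, and Srxn1, sulfiredoxin, which repairs over-oxidised peroxiredoxins. In Z-on Txnrd1 read 587, 447 and 565, beside 373, 484 and 399 in Z-off. The M-on arrays read 486, 561 and 435.5, the M-off arrays 449, 430.1 and 439, and WT 457, 419 and 442. All groups overlapped with their neighbours, and no comparison was called. The largest difference, Z-on against Z-off, was 0.34 (SE 0.14, adjusted p = 0.0735), and it passed without Z-on 2 (0.45, adjusted p = 0.0301) or without Z-off 2 (0.44, adjusted p = 0.0394). Its other probe sets, both dim, were not called from off to on, although 1424487_x_at was after quantile normalization (-0.91, adjusted p = 0.0213 for Z and -0.93, adjusted p = 0.0129 for M), and 1424486_a_at was higher in M-on than WT by 0.69 (SE 0.20, adjusted p = 0.0234).

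Srxn1, whose promoter holds the TGAGTCAGC shown above, read 126, 143 and 131 in Z-on and 183, 192 and 133 in Z-off. The M-on arrays read 155, 183 and 171, the M-off arrays 123, 134 and 119.7, and WT 92.2, 117 and 122. M-on lay above M-off and WT without overlap, whereas Z-on and Z-off overlapped through Z-off 3.

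M-on exceeded M-off in Srxn1 signal by 0.39 (SE 0.15, adjusted p = 0.0372), which was kept only without M-on 1 among the 6 arrays (adjusted p up to 0.115). Quantile normalization ended it (0.25, adjusted p = 0.211), as did leaving out M-on 1 and M-on 2 (0.41, adjusted p = 0.144). Z-on minus Z-off was -0.30 (SE 0.15, adjusted p = 0.121), and it was called after quantile normalization (-0.48, adjusted p = 0.0285) and without Z-off 3 (-0.45, adjusted p = 0.0277). M-on and Z-off each exceeded WT, by 0.56 (adjusted p = 0.0141) and 0.54 (adjusted p = 0.0159). Leaving out M-on 2 or WT 1 ended the first (adjusted p up to 0.0585), as did leaving out M-on 1 and M-on 2 (0.57, adjusted p = 0.0823), and leaving out Z-off 1, Z-off 2 or WT 1 ended the second (adjusted p up to 0.0702).

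These values came from 1426875_s_at, the brightest Srxn1 probe set, whose suffix marks probes shared by several transcripts, and the other 3 differed from it. In M-on against M-off all 4 were called higher, and these 3 changed by 1.96 (1419942_at, adjusted p = 4.95e-05), 1.08 (1425351_at, adjusted p = 9.27e-04) and 1.14 (1451680_at, adjusted p = 4.31e-05) and passed after quantile normalization too, at 1.60, 0.70 and 1.00. In Z-on against Z-off, 1419942_at was called higher, by 1.36 (adjusted p = 0.00108), against the -0.30 of the brightest probe set. The signals of 1419942_at were 85.2, 113.2 and 105.1 in Z-on, beside 44.5, 22.8 and 23.7 in Z-off. M-on gave 99.2, 101.0 and 139.1, M-off gave 6.3, 18.6 and 30, and WT gave 46.0, 53.3 and 74.6. Both on groups lay above WT and both off groups below it, an order that the brightest probe set did not show.

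**Figure D2:**
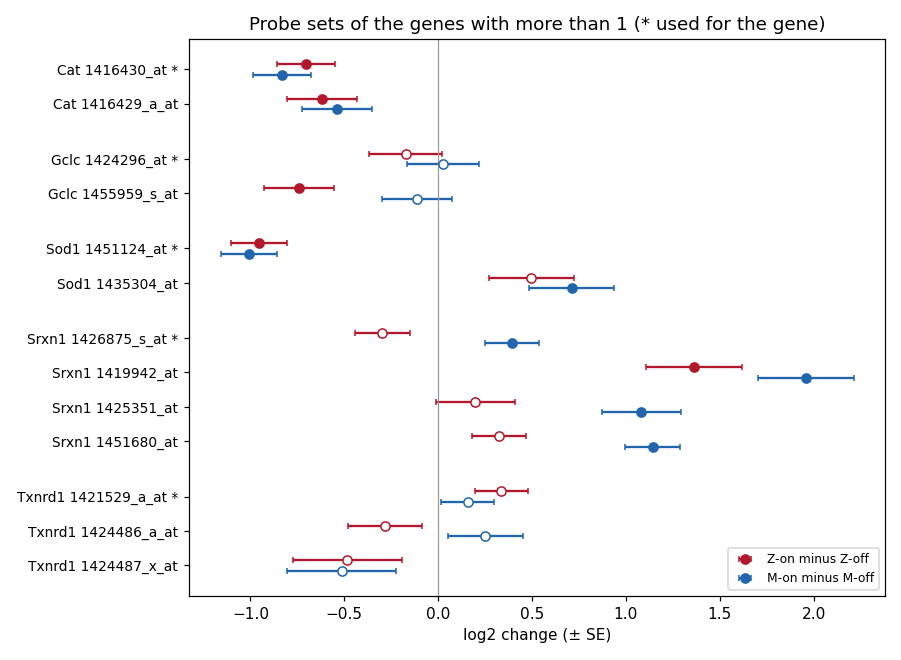
Change from off to on (log2 of signal + 16, ± SE) in the Z and M lines for each probe set of Cat, Gclc, Sod1, Srxn1 and Txnrd1. These are the genes with several probe sets. Points are filled where called, and a star marks the probe set used for its gene. The Srxn1 probe sets spread from -0.30 to 1.36 in the Z line but all lay above 0 in the M line, and those of Sod1 pointed in opposite directions.

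Nqo1 encodes a quinone reductase that is widely used as a readout of NRF2. The Z-on arrays read 75.9, 60 and 38.5, beside 45.9, 39.9 and 36.2 for Z-off. The M-on arrays read 84.5, 98.9 and 57.1, beside 32.7, 15.9 and 36.4 for M-off, and WT read 45.8, 39.8 and 36.6. M-on lay above the off groups and WT with no overlap, and Z-on reached down into them through Z-on 3.

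From M-off to M-on, Nqo1 rose by 1.12 (SE 0.23, adjusted p = 0.00103), and this held in 6 of 6 removals of 1 array, while the genes of its decile rose by a median of 0.75. With a constant of 64 in place of 16 the rise was 0.64. After quantile normalization over 1 probe set per gene it was 0.63 (adjusted p = 0.0539), over all probe sets 0.73 (adjusted p = 0.0255), and without M-on 1 and M-on 2 it was 0.75 (adjusted p = 0.0668). Against WT, M-on was higher by 0.74 (SE 0.23, adjusted p = 0.0294). This call was lost without M-on 1, M-on 2, WT 2 or WT 3 (adjusted p up to 0.116), without M-on 1 and M-on 2 together (0.37, adjusted p = 0.453) and after quantile normalization over 1 probe set per gene (0.70, adjusted p = 0.0518; 0.72, adjusted p = 0.0453 over all probe sets). Z-on minus Z-off was 0.36 (SE 0.23, adjusted p = 0.227), below the 0.62 of its decile, and the sign turned after quantile normalization (-0.14, adjusted p = 0.722).

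Osgin1, an oxidative stress induced growth inhibitor gene, had the largest change of the 10 genes at the constant added in the main fit. With a constant of 1, Slc7a11 changed more from Z-off to Z-on (2.06) than Osgin1 did (-1.90). Osgin1 read 278, 204 and 522 in Z-on and 990.1, 1448 and 1083 in Z-off, with no overlap. The M-on arrays read 359.6, 580.4 and 812, the M-off arrays 471, 535 and 722, and WT 559, 666 and 1029.5. The M and WT groups overlapped, and within the M-on, Z-on and WT groups the highest array was 1.84 to 2.55 times the lowest.

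Osgin1 fell by 1.84 on the log2 scale from Z-off to Z-on (-1.84, SE 0.34, adjusted p = 9.25e-04), was as large after quantile normalization (-1.83, adjusted p = 0.00255) and passed without any 1 of the 6 arrays. In the M line the change was -0.03 (SE 0.34, adjusted p = 0.946). The difference between the lines' changes was -1.81 (SE 0.49) with adjusted p = 0.106. It passed without M-on 1 (-2.11, adjusted p = 0.0131) and without M-on 1 and M-on 2 (-2.35, adjusted p = 0.0234). Z-on minus WT was -1.18 (adjusted p = 0.0368), a call lost without Z-on 1, Z-on 2, WT 2 or WT 3 (adjusted p up to 0.142). Z-off minus WT was 0.66 (SE 0.34, adjusted p = 0.18).

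Cat encodes catalase, the peroxisomal enzyme that splits hydrogen peroxide. Its signal was 3248, 2939.6 and 2983 with the Z protein made, and 5189.6, 4347 and 5479 in Z-off. With the M protein made it was 2397, 2658 and 3241, and 4172, 4822 and 5831 in M-off. WT read 3930.0, 4112 and 4491. Every on array was below every off and every WT array, and the off groups overlapped with WT.

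Cat fell from off to on in both lines, with changes of -0.70 (SE 0.15, adjusted p = 0.00269) for Z and -0.83 (SE 0.15, adjusted p = 5.68e-04) for M. The brightest decile of genes changed by medians of -0.16 and -0.12. Both changes passed after quantile normalization (-0.49, adjusted p = 0.0174 and -0.70, adjusted p = 0.00139), and for M also without M-on 1 and M-on 2 (-0.59, adjusted p = 0.0362). M-on minus WT was -0.60 (adjusted p = 0.0126) and did not pass after quantile normalization (-0.36, adjusted p = 0.0806) or without M-on 1 and M-on 2 (-0.36, adjusted p = 0.253). The second probe set, 1416429_a_at, changed by -0.62 (adjusted p = 0.0181) and -0.54 (adjusted p = 0.0278) from off to on, and passed in neither line after quantile normalization.

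Sod1 encodes the cytosolic copper-zinc superoxide dismutase. Signals were 1997, 2122 and 1773 for Z-on, beside 4004, 3552 and 3906 for Z-off. For M-on they were 1735, 1531 and 2340.5, beside 3532, 3536 and 4120.5 for M-off, and WT read 4652, 4529 and 4463. The on groups lay lowest, the off groups between, and WT highest, with no overlap between WT and any other group or between on and off.

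Sod1 fell from off to on, with changes of -0.96 for Z (SE 0.15, adjusted p = 2.74e-04) and -1.01 for M (SE 0.15, adjusted p = 1.08e-04). These passed after quantile normalization (-0.79, adjusted p = 0.00179 and -0.92, adjusted p = 3.00e-04), without any 1 array, and for M without M-on 1 and M-on 2 (-0.66, adjusted p = 0.00765). The difference from WT was -1.21 for Z-on (adjusted p = 5.19e-04) and -1.30 for M-on (adjusted p = 1.87e-04). For Z-off and M-off it was -0.25 (adjusted p = 0.24) and -0.29 (adjusted p = 0.173), which did not pass. A far dimmer probe set, 1435304_at, pointed the other way, at 0.50 (SE 0.23, adjusted p = 0.105) for Z and 0.71 (SE 0.23, adjusted p = 0.0202) for M. Neither passed after quantile normalization (0.20, adjusted p = 0.554 and 0.33, adjusted p = 0.271).

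**Figure D3:**
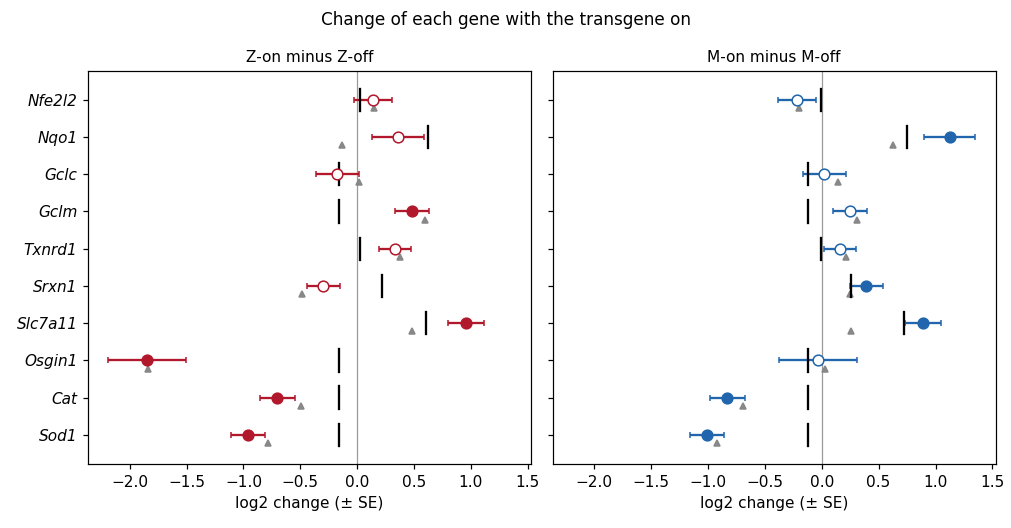
Change from off to on for the 10 genes in the Z line and the M line (log2 of signal + 16; circles with SE bars, filled where called), with the same change after quantile normalization (grey triangles) and the median of genes in the same decile of mean signal (black bars). Cat and Sod1 lay below their decile in both lines, Osgin1 changed by -1.84 in the Z line and -0.03 in the M line, and Slc7a11 and Nqo1 sat beside deciles that rose by 0.61 to 0.75.

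Against WT, the members called were few, and Gclc was the member called in all 4 comparisons, which share the WT arrays. For Z-on, 2 were called higher (Gclc and Nfe2l2), where 7.55% of all genes were, and 2 lower (Osgin1 and Sod1), where 4.74% were. For M-on, 3 were called higher (Gclc, Nqo1 and Srxn1; background 14.6%) and 2 lower (Cat and Sod1; 9.48%), and without M-on 1 and M-on 2 Sod1 alone passed (-0.95, adjusted p = 0.00212). For Z-off, Gclc and Srxn1 were higher (background 4.09%) and Slc7a11 lower (20.3%). For M-off, Gclc was higher (3.99%) and Slc7a11 lower (22.4%), and neither passed after quantile normalization. Of the hepatocyte markers, 5 of 6 were called lower in Z-on and in M-on than in WT and 4 of 6 in either off group. These calls were made before quantile normalization only. Their summed signals were 36349 to 39669.8 in Z-on, 36954 to 44789 in M-on and 40779.6 to 48772 in Z-off. The sums were 41872 to 46738 in M-off and 61450.6 to 70104 in WT. The top of the signal scale differed in the same direction. The highest signal of an array was 16770 to 22995.4 in WT and at most 12314.4 in the other groups. The part of the markers or of this scale in the members' differences was not tested.

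**Figure D4:**
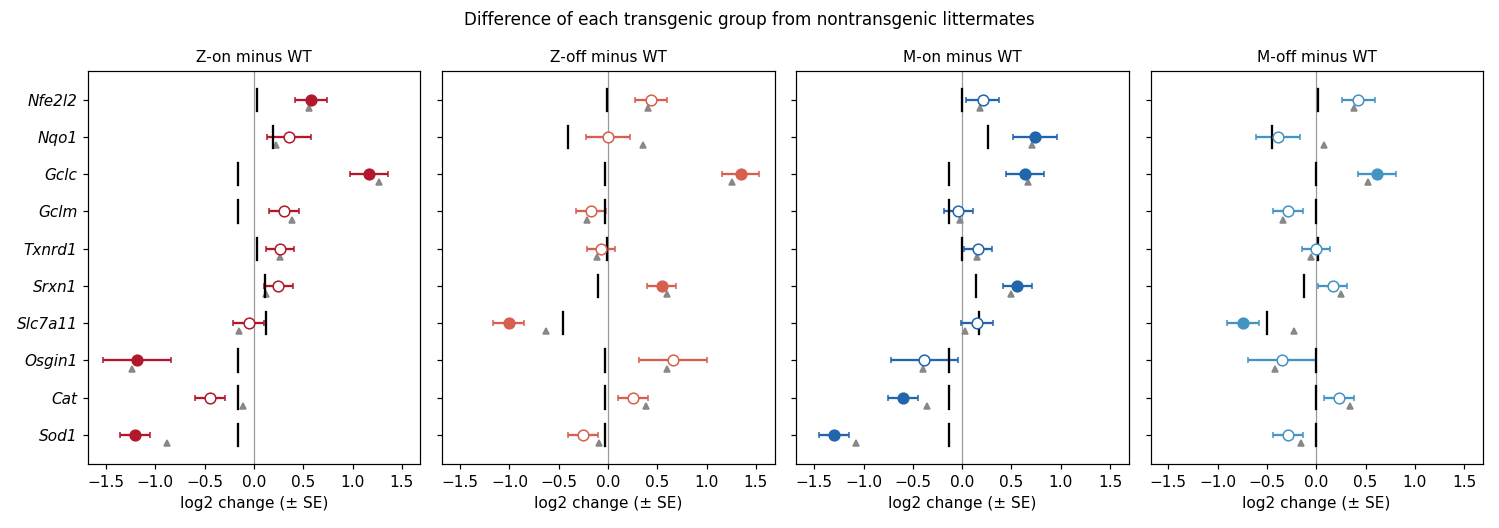
Difference from WT for the 10 genes in Z-on, M-on, Z-off and M-off (log2 of signal + 16; circles with SE bars, filled where called; grey triangles after quantile normalization; black bars for the median of genes in the same decile of mean signal). Gclc was above 0 in all 4 panels by 0.62 to 1.34, Sod1 was lowest relative to WT in both on groups, and Slc7a11 was below 0 in both off groups.

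Comparing the Z and M proteins directly, no member was called. Z-on minus M-on called 0 of 10 (background 3.68% higher and 1.48% lower), and the largest differences were Osgin1 at -0.80 (SE 0.34, limma adjusted p = 0.207) and Gclc at 0.53 (SE 0.19, adjusted p = 0.132). Without M-on 1 and M-on 2, Nfe2l2 passed (0.71, adjusted p = 0.0443). Set against each other, the on-off changes of Z and M called 0 of 10 (0.307% higher and 0.307% lower), with Osgin1 at -1.81 and Srxn1 at -0.69 (adjusted p = 0.145; -0.75, adjusted p = 0.0493 without M-on 1) the farthest from 0 beside Nqo1 at -0.77 (adjusted p = 0.28). Z-off minus M-off also called 0 of 10 (0.0807% and 0.0484%). At an unadjusted p under 0.05 these comparisons gave 5, 3 and 3 of the 10 genes, where 19.7%, 15.2% and 9.43% of all genes were under it.

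Cell type markers differed in some of these comparisons. Over all genes, 31.8% were called higher and 7.56% lower for Z, and 38.1% and 12.5% for M. At an unadjusted p under 0.05 the shares were 37.8% and 10.3% for Z, and 42.2% and 14.4% for M. Some markers were dim, with group means of at most 46.8 for Pecam1 and 62.3 for Des. Dim genes rose as a class from off to on, by medians of 0.62 (Z) and 0.75 (M) in the decile of Nqo1. Marker calls are given with all arrays and before quantile normalization only. The summed signal of 6 Kupffer cell markers was 1861.5 to 2183 in M-on and 1068 to 1145 in M-off, with 4 of 6 called higher, and 937 to 1151 in Z-on against 797 to 1361 in Z-off, with 1 called lower. That of 4 endothelial markers was 497 to 579 in M-on against 232 to 282 in M-off, all 4 called higher, and 412 to 450.0 in Z-on against 237 to 301 in Z-off, 1 called higher. The 5 stellate cell markers summed to 1187 to 1258 in Z-on and 650.7 to 873 in Z-off, 3 called higher, and to 787 to 1318 in M-on and 976 to 1094.5 in M-off, 2 called higher. Their part in the rises of Nqo1, Srxn1 and Slc7a11 was not tested. The 4 cholangiocyte markers summed to at most 89.4 on any array, with 0 called in Z-on against Z-off, also at an unadjusted p under 0.05, and 1 lower in M-on against M-off. Of the exocrine pancreas list 2 of 5 markers were measured. They summed to 359.9 to 650.2 in M-on against 913 to 1005.5 in M-off and to 672 to 1359 in Z-on against 636 to 1003.5 in Z-off. In each line 1 was called lower, Cela1 in M and Cpa1 in Z. Cpa1 read 0.8 to 1.2 in Z-on and 0.4 to 174.5 in Z-off, which overlapped. The 3 of 6 erythroid markers measured overlapped between on and off, at 177 to 399.6 in the on groups and 243 to 1011 in the off groups, with 0 called, also at an unadjusted p under 0.05. The part of the pancreas markers in the members' changes was not tested.

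The rest of the pathway was read from 7 lists by role, of which 51 of 60 genes were measured. From Z-off to Z-on 3 genes were called higher and 13 lower (median -0.27), and from M-off to M-on 10 were higher and 6 lower (median -0.08). All genes together had 31.8% higher and 7.56% lower for Z and 38.1% and 12.5% for M. Without M-on 1 and M-on 2 the M count fell from 16 to 9.

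Of 8 NRF2 regulators, 4 were called higher and 1 lower in the M line, where 38.1% of all genes were higher and 12.5% lower. In the Z line 1 was called higher, where 31.8% of all genes were. Cul3, the scaffold of the ligase that KEAP1 uses, was lower in M-on (107 ± 65.8 against 313 ± 6.06, change -1.55, SE 0.25, adjusted p = 1.79e-04). Sqstm1, the autophagy adaptor p62 that binds KEAP1, was higher there (1903 ± 155 against 1259 ± 89.1, 0.59, adjusted p = 0.00288). Nfe2l1, the related factor NRF1, rose in both lines (0.58, adjusted p = 0.0320 and 0.84, adjusted p = 0.00290), and Keap1 rose in M (0.38, adjusted p = 0.0231). After quantile normalization the calls of Nfe2l1 in Z (0.41, adjusted p = 0.132) and Keap1 (0.32, adjusted p = 0.0695) were lost. Without M-on 1 and M-on 2, Sqstm1 and Cul3 were the genes of this list called.

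Genes of glutathione synthesis and use gave 1 higher and 3 lower of 10 in Z and 2 higher and 1 lower in M. Slc3a2, the heavy chain that partners the xCT transporter, rose with Slc7a11 in both lines, by 0.73 (376 ± 33.6 against 219 ± 7.55, adjusted p = 4.91e-04) and 0.93 (503.5 ± 64 against 256 ± 4.25, adjusted p = 5.39e-05). Cbs, which starts the making of cysteine from homocysteine, fell in Z (-1.15, adjusted p = 0.00218), as did Gsr, glutathione reductase (-0.55, adjusted p = 0.00660). Gpx3, a secreted glutathione peroxidase, rose in M (1.05, adjusted p = 0.00554) but not after quantile normalization (0.43, adjusted p = 0.266).

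Glutathione transferases, which conjugate glutathione to electrophiles, had 3 of 7 called lower in Z (7.56% of all genes) and 2 of 7 in M (12.5%). Called higher were 0 in either line, where 31.8% (Z) and 38.1% (M) of all genes were. At an unadjusted p under 0.05 also 0 were higher, where 37.8% and 42.2% of all genes were. Gsta3 fell in both (-0.75, adjusted p = 0.00195 and -0.54, adjusted p = 0.0100), Gstm3 and Gstm1 fell in Z (-1.37, adjusted p = 0.0171 and -0.44, adjusted p = 0.0498) and Gstp1 fell in M (-1.21, adjusted p = 0.00141). Quantile normalization ended the calls of Gsta3 in M (-0.37, adjusted p = 0.0571) and Gstm1 (-0.19, adjusted p = 0.426). Without M-on 1 and M-on 2 no call was left in M, with Gstp1 at -0.39 (adjusted p = 0.0949).

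Thioredoxin and peroxiredoxin genes had 2 of 8 lower in Z and 2 higher and 2 lower in M. Prdx3, the mitochondrial peroxiredoxin, fell in both lines (-0.69, adjusted p = 5.36e-04 and -0.42, adjusted p = 0.00942), Prdx4, that of the endoplasmic reticulum, fell in Z (-0.58, adjusted p = 0.00695), Prdx2 fell in M (-0.54, adjusted p = 0.0167) and Txnrd2, the mitochondrial reductase, rose in M (0.73, adjusted p = 0.0171). After quantile normalization Prdx2 (-0.43, adjusted p = 0.0545) and Txnrd2 (0.57, adjusted p = 0.0924) did not pass. Of the other superoxide dismutase genes, Sod3, the extracellular form, rose in M (1.02, limma adjusted p = 0.00117). In Z 0 of the 3 was called or had an unadjusted p under 0.05, where 48.1% of all genes were under it.

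Of the enzymes that supply NADPH, 0 of 5 were called in M, where 38.1% of all genes were higher and 12.5% lower. At an unadjusted p under 0.05, 2 were lower there, as were 14.4% of all genes. In Z 4 of 5 were called lower, where 7.56% of all genes were. The 4 were Taldo1 (-0.94, adjusted p = 0.00463), Idh1 (-0.51, adjusted p = 0.00892), Pgd (-0.78, adjusted p = 0.00948) and Tkt (-0.66, adjusted p = 0.0165). After quantile normalization 2 of the 4 passed, Taldo1 and Pgd. Whether the lines differed was tested per gene, and with all arrays 0 of the 51 pathway genes were called. At an unadjusted p under 0.05 there were 2 higher and 11 lower, where 7.89% of all genes were higher and 7.28% lower. In the last list, of detoxification, heme and iron genes, the bile canalicular exporter Abcc2 rose in Z (1.12, adjusted p = 0.00302), heme oxygenase Hmox1 fell in Z (-0.72, adjusted p = 0.0139), and carbonyl reductase Cbr1 rose in M (0.61, adjusted p = 0.0415; 0.04, adjusted p = 0.908 without M-on 1 and M-on 2).

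Several of these pathway calls depended on 1 array. Of the 6 removals of 1 array, Prdx2 in M kept its call in 5 (lost without M-on 1), Pgd in 5 (lost without Z-on 3) and Hmox1 in 5 (lost without Z-off 1). Gstm3, Tkt and Txnrd2 kept theirs in 3, Keap1 and Gstm1 in 2, and Nfe2l1 in Z and Cbr1 in 1, with adjusted p of up to 0.212. Set directly against M-on, Z-on had 2 of the 51 pathway genes called higher (background 3.68%) and 2 lower (1.48%). Higher were Cul3 (1.34, adjusted p = 0.0129) and Abcc2 (0.89 to 1.19 over the removals). Lower were Prdx4 (-0.91, adjusted p = 0.00841) and the glutathione transferase Gstm2 (-0.88, adjusted p = 0.0319). Prdx4 kept this call in 6 of 6 removals, Cul3 in 5, Gstm2 in 2 and Abcc2 in 1 (adjusted p up to 0.151). Without M-on 1 and M-on 2 together, Nfe2l1 (0.66, adjusted p = 0.0869), Gsta3 (-0.39, adjusted p = 0.179), Prdx2 (-0.17, adjusted p = 0.491) and Sod3 (0.65, adjusted p = 0.0691) were not called in M.

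**Figure D5:**
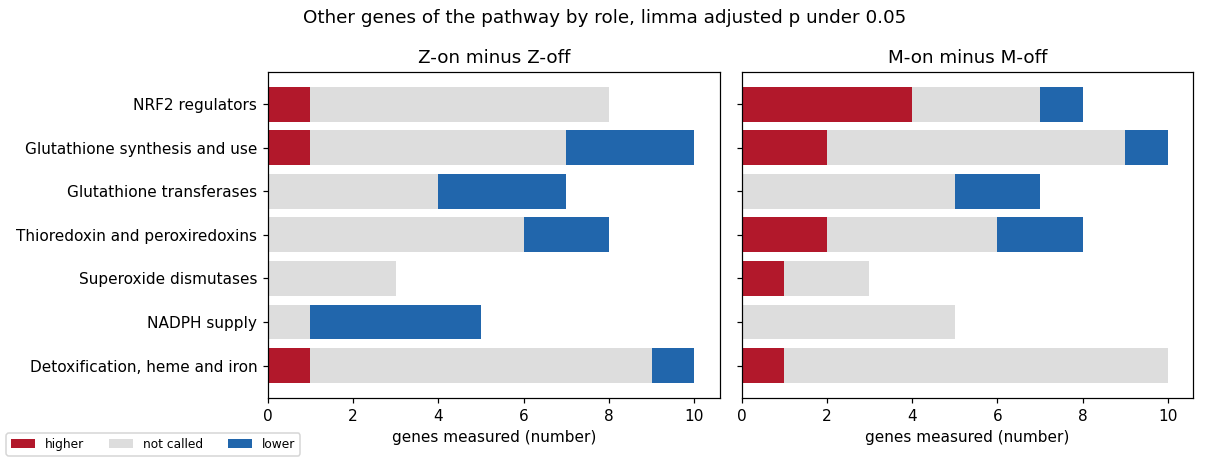
Number of measured genes in each of the 7 role lists called higher (red), called lower (blue) or not called (grey) by limma in Z-on against Z-off (left) and M-on against M-off (right). Of the NADPH supply genes 4 of 5 were called lower in Z and 0 of 5 in M, and 4 of 8 NRF2 regulators were higher in M. Over all genes 31.8% were called higher and 7.56% lower in Z, and 38.1% and 12.5% in M. For the difference of on-off changes between the lines, 0 of the 51 genes were called.

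The genes whose log2 signals followed each member most closely over the 15 arrays were mostly outside the lists by role. The highest Pearson correlations were with Stt3a for Cat (0.98), Hagh for Sod1 (0.97), Pim2 for Slc7a11 (0.96), Gnpda1 for Nqo1 (0.92), Anxa6 for Srxn1 (0.90), Xpo4 for Gclm (0.90), Gadd45gip1 for Osgin1 (0.88), Napg for Nfe2l2 (0.87), Clcn3 for Gclc (0.87) and Lamc1 for Txnrd1 (0.85). Among the 3 nearest genes, Sqstm1 stood beside Srxn1 (0.89), Gsta2, a glutathione transferase, beside Gclc (0.84), and Txnl1, a thioredoxin-like gene outside the lists, beside Cat (0.96). These correlations run over 5 groups whose arrays differ in median and control signals, and they are given as a description with no test.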

How the data were processed

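The deposited values were linear probe set intensity values of 15 arrays, between 0 and 22995.4. RMA is the only tool in the submitters' processing notes. Because values of 0 occurred and the 2% trimmed mean was 149.98 on every array, they were treated as scaled linear intensities, and how they were scaled is not stated in the labels. Of 22690 probe sets, 20380 had 1 gene, 691 several, 1555 none and 64 were controls. Each gene was read from its brightest probe set, the constant 16 was added and log2 taken.

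All arrays and 12393 genes entered 1 linear model of the group means in limma 3.58.1 in R 4.3.3 (10 residual and 3.88 prior degrees of freedom), and p was two-sided and adjusted by Benjamini-Hochberg over all genes of a comparison. Alternatives were quantile normalization, constants of 1 and 64, a filter leaving 7435 genes, a replicate block, the compared groups alone, arrays left out and other probe sets. An exact test of 3 against 3 arrays cannot go below 0.1. Plots were drawn with matplotlib 3.10.9.

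The members and lists were chosen with earlier results of these data known. The text names all members, up to 4 called genes per list with the smallest adjusted p in the on-off comparisons, and, for each member, its nearest genes among the 3 by Pearson correlation. The pathway genes called in Z-on against M-on are named too. Same-numbered arrays of different groups did not vary together (residual correlations of -0.17 to 0.07 over 30 pairs, against -0.11 to 0.16 over 60 others), so numbers were not used to pair arrays.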

Additional observations from a re-analysis of the deposited data

How the results depend on the processing

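Of the 10 members, the number called changed by over 1.5 times in these cases. For M-on against M-off it was 5, and 2 after quantile normalization over 1 probe set per gene (4 over all probe sets, an alternative chosen after seeing the data). For Z-on against WT it was 4, and 2 with the compared groups alone or with a constant of 1. For M-on against WT it was 5, and 1 with the compared groups alone, 3 after quantile normalization or with a constant of 1, and 1 without M-on 1 and M-on 2. For M-off against WT it was 2, and 0 after either quantile normalization. With the filter on dim genes it was 1, because the filter left Slc7a11 untested. Without M-on 1 and M-on 2 it went from 0 to 1 for Z-on against M-on (Nfe2l2) and from 0 to 1 for the difference of on-off changes (Osgin1).

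Leaving out 1 array gave 4 to 6 members for Z-on against Z-off, 4 to 5 for M-on against M-off, 0 to 1 for Z-on against M-on and for Z-off against M-off, 2 to 4 for Z-on, 3 to 4 for M-on, 2 to 3 for Z-off and 1 to 2 for M-off against WT, and 0 to 2 for the difference of on-off changes. With the replicate block, 5 members were called for either on-off comparison, 4, 5, 3 and 2 for Z-on, M-on, Z-off and M-off against WT, and 0 for the other comparisons, as without it, and no member's call changed.

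Among the 51 pathway genes, M-on against M-off went from 16 to 10 after quantile normalization and to 9 without M-on 1 and M-on 2. Z-on against M-on went from 4 to 0 with the compared groups alone, 2 with a constant of 1 and 8 without M-on 1 and M-on 2. M-on against WT went from 15 to 6 with the compared groups alone. The difference of on-off changes went from 0 to 1 with the filter, 2 with a constant of 64 and 4 without M-on 1 and M-on 2. Leaving out 1 array gave 10 to 16 genes for Z-on against Z-off, 11 to 19 for M-on against M-off, 1 to 9 for Z-on against M-on, 7 to 10, 11 to 14, 7 to 12 and 3 to 5 for Z-on, M-on, Z-off and M-off against WT, 0 to 0 for Z-off against M-off and 0 to 5 for the difference of on-off changes. The cause of these shifts was not tested.

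Among the members, the direction of a called change turned with no setting other than another probe set of the same gene. Srxn1 1419942_at gave 1.36 for Z-on against Z-off, -0.69 for Z-off and -1.15 for M-off against WT. Sod1 1435304_at gave 0.50 and 0.71 for the Z and M on-off changes and 0.60 and 0.25 for Z-on and M-on against WT. Gclc 1455959_s_at gave -0.14 for M-on and -0.032 for M-off against WT. In the off groups Slc7a11 lay below the added constant of 16, so its differences on this scale are compressed.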
